A study of Mus musculus with 18 samples.

Results

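The genes of glycolysis and of the hypoxia response form a set of 35 listed genes, all of them found by symbol among the 55414 genes of the deposited table. The list was taken as given, by symbol. It holds 4 glucose and lactate transporters, 14 glycolytic enzymes, 2 regulators of phosphofructokinase (Pfkfb3 and Pfkfb4), 3 genes that set the fate of pyruvate (Ldha, Ldhb and Pdk1), 2 alpha subunits of hypoxia-inducible factor (HIF; Hif1a and Epas1), 2 HIF prolyl hydroxylases (Egln1 and Egln3) and 8 other hypoxia response genes. Aldoa had a second identifier in the table that reached at most 3.31 TPM (a level scaled for gene length and library size), and its main identifier was used.

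Glycolysis turns glucose into pyruvate through a chain of cytosolic enzymes, and lactate dehydrogenase converts pyruvate into lactate, which monocarboxylate transporters carry out of the cell. When oxygen is low, HIF alpha subunits escape prolyl hydroxylation and degradation, pair with Arnt and bind short core sequences near genes of glucose uptake, glycolysis, mitophagy and vessel growth. The intestinal epithelium lies in a steep oxygen gradient between its blood supply and a lumen almost without oxygen, and HIF activity is known to take part in its barrier.

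Mouse small intestinal epithelium from C57BL/6J WT animals was cultured as organoids and sequenced as polyA RNA, with 3 libraries in each of 6 groups, described by the series as biological replicates. Villus-derived cultures (VIL) were grown from scraped villi of the first 3 cm after the stomach outlet, in collagen type I with 25% cWRNE medium. Crypt-derived cultures in collagen type I with 25% cWRNE medium (COL_cWRNE) are their matched group. The other 4 groups came from crypts: collagen type I with ENRW medium and 5-fluorouracil (5-FU, a pyrimidine analog used in chemotherapy) at 40 µM from day 4 (COL_5FU) or without it (COL_Control), and Matrigel, an extract of basement membrane, with ENR medium and the same 5-FU exposure (MG_5FU) or without it (MG_Control). All cultures were harvested on day 6 and none carried a transgene. Because the collagen and Matrigel groups differed in medium as well as matrix, a difference between them cannot be told apart from one of medium.

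Libraries held 22280427 to 34480406 estimated counts in all. The 8 epithelial markers summed to 7755 to 27290 TPM in all 18 libraries, with none at 0, as the labelled tissue would have. In the 15 crypt-derived libraries the 12 fibroblast and smooth muscle markers summed to 1.17 to 7.60 TPM and the 12 macrophage and other immune markers to 21.3 to 161.5 TPM. VIL libraries stood apart: their immune markers summed to 1252, 3770 and 5991 TPM and their fibroblast and smooth muscle markers to 26.4, 326.1 and 322.3 TPM in replicates 1, 2 and 3. Endothelial markers reached at most 14.2 TPM in any library. COL_Control replicate 3 held 738 counts of Y-linked genes beside 4893 of Xist. Every other library held at most 1 Y-linked count or at most 15 Xist counts. In each of the 6 groups replicate 2 held 3323 to 5577 Y-linked counts and at most 15 of Xist. Replicates 1 and 3 held 4833 to 9033 Xist counts. By these genes each group mixed both sexes and the replicate number went with sex, apart from the Y-linked counts of COL_Control replicate 3. Among members with a group mean of at least 5 CPM (a count scaled to library size), COL_5FU replicate 1 was the lowest of its group for 30 of 32 and COL_cWRNE replicate 2 for 29 of 33. In the Matrigel cultures replicate 1 was the highest of its group, for 25 of 34 members in MG_5FU and 29 of 33 in MG_Control. Counts of members called without these libraries are given with each comparison they entered. The immune sums rested on few genes. In COL_cWRNE the largest were Cd14 and Cd68, at means of 68.7 and 46.6 CPM, while Ptprc, Adgre1, Tyrobp and C1qb were at 0. In VIL the largest was Lyz2, at a mean of 2181 CPM, followed by C1qb at 133.2 CPM.

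The promoters of 32 members were found in a RefSeq table of 32851 promoters (mouse build GRCm38.p6), each 300 bases long, from 250 bases before the start site to 50 bases after it. The HIF core letters ACGTG or GCGTG, read on both strands (CACGT and CACGC on the printed strand), occurred at least once in 39 of 46 member promoters, 84.8%, against 43.8% of all promoters. At least 2 cores occurred in 63% of member promoters and 17.3% of all promoters. Several promoters of 1 gene could overlap, as in Ak4, Eno1 and Aldoa, so the same site could be counted more than once. By gene, 30 of the 32 members had at least 1 core, for which no share over all genes was computed. Member promoters were also richer in bases G and C, with a median of 64.8% against 52.7%, and held a median of 23 CG dinucleotides against 7. The shares were not adjusted for this, and a match is a description of letters, not a bound site. The E-box letters CACGTG contain both ACGTG and CACGT and occurred in 6 of the 46 member promoters, against 7.2% of all promoters. Promoters of Bnip3, Slc16a3, Pgk1 and Tpi1 are shown as examples from the 12 members called lower with 5-FU in both matrices. The collagen calls of Slc16a3, Pgk1 and Tpi1 were lost without certain single libraries, as given below. Cores are in capitals. Bnip3 (chr7:138909457-138909756, minus strand) held 4 separate sites, 1 of them the E-box letters, Slc16a3 (chr11:120948817-120949116, plus strand) and Pgk1 (chrX:106186850-106187149, plus strand) held 2 each, and Tpi1 (chr6:124814109-124814408, minus strand) held none.
Bnip3: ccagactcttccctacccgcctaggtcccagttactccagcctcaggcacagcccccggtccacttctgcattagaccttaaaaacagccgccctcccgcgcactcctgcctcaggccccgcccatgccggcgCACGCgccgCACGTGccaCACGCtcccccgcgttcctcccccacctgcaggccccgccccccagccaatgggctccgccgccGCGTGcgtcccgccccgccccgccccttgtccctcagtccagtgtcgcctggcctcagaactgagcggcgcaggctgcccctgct
Slc16a3: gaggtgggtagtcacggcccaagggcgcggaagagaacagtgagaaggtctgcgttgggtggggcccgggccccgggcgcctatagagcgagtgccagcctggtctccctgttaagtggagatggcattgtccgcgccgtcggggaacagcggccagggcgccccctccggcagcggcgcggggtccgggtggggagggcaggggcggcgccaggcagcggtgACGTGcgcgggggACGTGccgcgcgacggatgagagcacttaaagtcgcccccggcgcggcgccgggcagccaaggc
Pgk1: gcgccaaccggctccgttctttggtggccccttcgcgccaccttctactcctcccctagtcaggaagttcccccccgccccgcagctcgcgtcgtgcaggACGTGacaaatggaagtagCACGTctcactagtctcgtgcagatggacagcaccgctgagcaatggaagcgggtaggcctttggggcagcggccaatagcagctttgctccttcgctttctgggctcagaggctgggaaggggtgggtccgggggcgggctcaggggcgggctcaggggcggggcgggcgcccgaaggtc
Tpi1: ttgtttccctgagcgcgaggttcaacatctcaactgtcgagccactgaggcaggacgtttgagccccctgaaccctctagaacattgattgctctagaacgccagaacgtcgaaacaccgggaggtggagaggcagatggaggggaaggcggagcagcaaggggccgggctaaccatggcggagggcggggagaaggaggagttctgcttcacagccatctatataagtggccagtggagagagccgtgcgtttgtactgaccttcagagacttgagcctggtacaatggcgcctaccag

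By length-scaled level, members spanned a wide range. Ldha, the main subunit of lactate dehydrogenase in these cultures, averaged 4170 TPM over the 18 libraries, followed by the aldolase Aldoa at 3030 TPM and the pyruvate kinase Pkm at 2440 TPM. In all, 6 members averaged over 1000 TPM, 12 lay between 100 and 1000 TPM, and 2 stayed under 5 TPM, the HIF subunit Epas1 at 2.86 TPM and the glucose transporter Slc2a3 at 0.202 TPM. Values by library below are CPM scaled by edgeR's TMM factors, which compare libraries for 1 gene. The plot of 9 members by library shows them for each role.

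**Figure D1:**
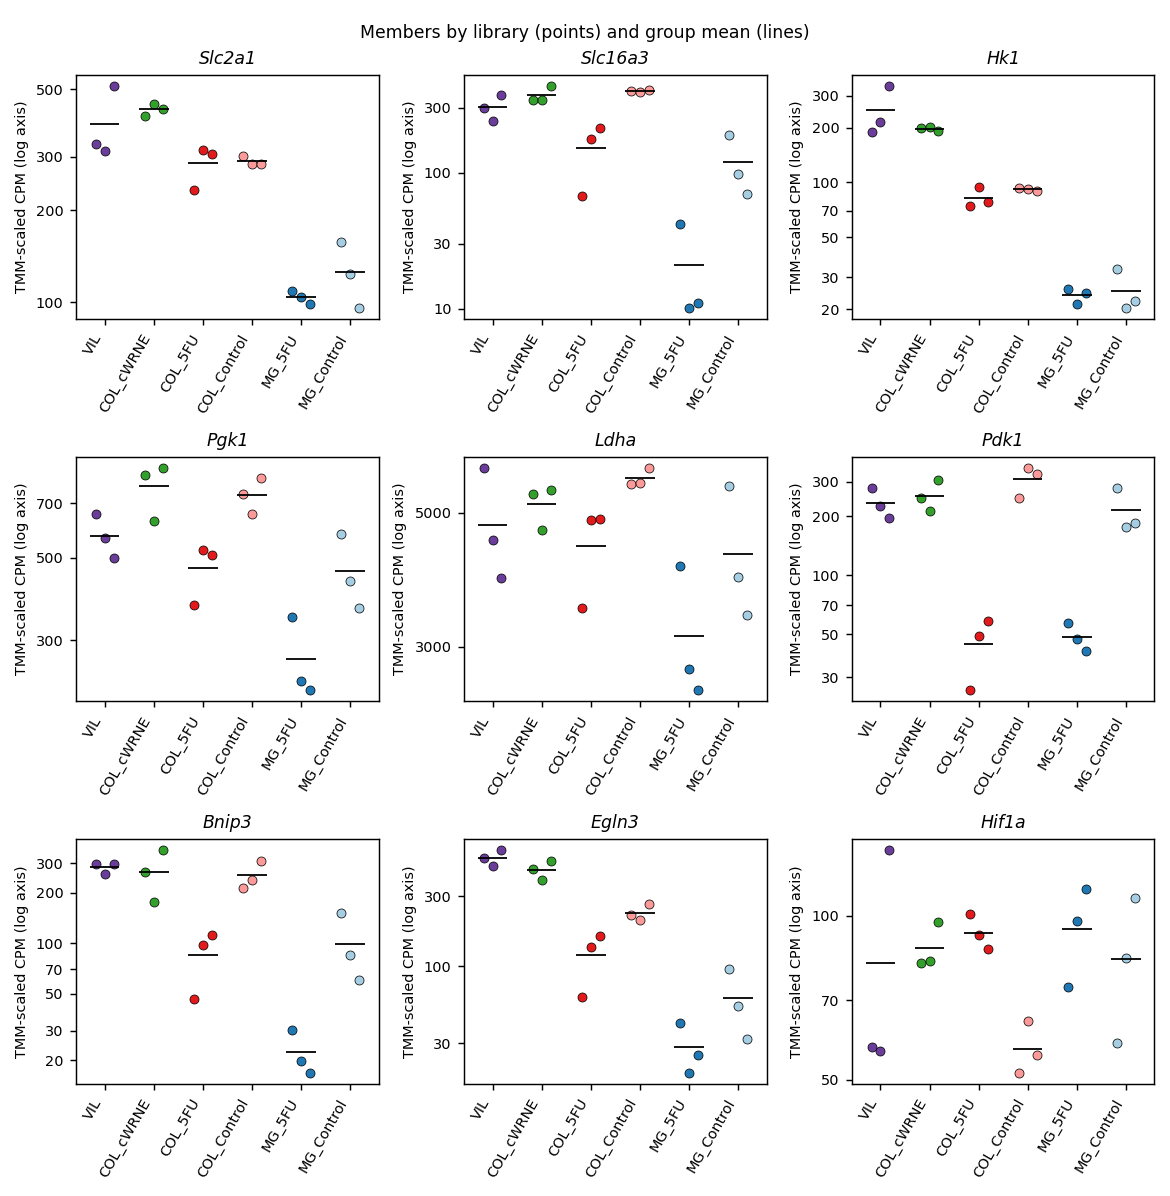
Levels of 9 members in each of the 18 libraries, as TMM-scaled CPM on a log axis; points are libraries and lines group means. Pdk1 lay between 25.8 and 58.3 CPM in all 5-FU libraries and between 176.9 and 353.6 CPM in the other crypt-derived and villus-derived libraries.

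The first question of the design was how the cultures responded to 5-FU in each matrix. In Matrigel, 2 of the 34 members tested were higher in MG_5FU than in MG_Control and 15 were lower, against 19.2% higher and 11.7% lower among all 16611 genes tested. The members' median log2 fold change was -0.56, beside 0.06 over all genes tested. In collagen, 2 were higher and 18 lower in COL_5FU than in COL_Control, against 18.6% and 16.7% of all genes, with a median of -0.65 beside -0.03. A call here is a Benjamini-Hochberg adjusted p under 0.05 over all genes tested with edgeR's quasi-likelihood test, and every fold change given with a ± sign is on the log2 scale. Of the lower calls, 12 genes were shared, 12 of the 15 in Matrigel and 12 of the 18 in collagen. These were the lactate transporters Slc16a1 and Slc16a3, Hk2, Pfkl, Pfkp, Tpi1, Pgk1, Pdk1, Egln1, Vegfa, Bnip3 and Ak4. The overlap of lower calls over all genes was not computed, so this overlap is not a result about the set. In bulk RNA of this kind, fewer cells of a type and less RNA per cell cannot be told apart.

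The counts moved with the scaling and with single libraries. Scaled by library totals alone, 2 members were higher and 19 lower in Matrigel, and 2 and 21 in collagen, with 44.6% and 41.7% of all calls in the higher direction in place of 62.2% and 52.8%. Without MG_Control replicate 1 the Matrigel counts were 1 higher and 11 lower, and without MG_5FU replicate 1 they were 2 and 18. Collagen counts were 1 higher and 13 lower without COL_5FU replicate 1, and 1 and 14 without COL_Control replicate 3.

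Among the transporters, Slc16a3, an exporter of lactate, had 41.7, 10.1 and 10.9 CPM in MG_5FU and 190.5, 97.8 and 70.1 CPM in MG_Control. Every MG_5FU library lay below every MG_Control library, with replicate 1 the highest in both, and the log2 fold change was -2.44 ± 0.54 (SE, edgeR adjusted p = 0.00335). In collagen it had 67.5, 175 and 212 CPM in COL_5FU and 398, 390.5 and 402 CPM in COL_Control, again without overlap, and fell by 1.42 ± 0.51 (SE, edgeR adjusted p = 0.0442). That collagen call was lost with the replicate numbers as a block (edgeR adjusted p = 0.0505), in DESeq2 (adjusted p = 0.0748), and without any of COL_Control replicates 1, 2 and 3 (0.0749, 0.0853 and 0.0872) or COL_5FU replicates 1 and 2 (0.153 and 0.0839). The broader monocarboxylate carrier Slc16a1 was lower in both, by 0.96 ± 0.15 in Matrigel and 1.27 ± 0.16 in collagen. Slc2a1, the widely used glucose transporter, passed the test in neither matrix: it had 109, 104 and 99.1 CPM in MG_5FU against 158, 124 and 95.7 CPM in MG_Control, and 234, 315 and 306 CPM in COL_5FU against 302, 283 and 284 CPM in COL_Control. Slc2a3, a high-affinity glucose transporter, held at most 18 counts in any of these 12 libraries and was too low to test.

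Of the 14 glycolytic enzymes, 6 were lower with 5-FU in Matrigel and 8 in collagen, and none was higher in either. The phosphofructokinase subunits, at the committed step, were lower in both: Pfkl by 1.39 ± 0.21 in Matrigel and 0.58 ± 0.21 in collagen, and Pfkp by 0.94 ± 0.15 and 1.40 ± 0.15 (log2, SE). The collagen call of Pfkl was lost without any of COL_Control replicates 1, 2 and 3 (edgeR adjusted p = 0.0753, 0.0849 and 0.0886) or COL_5FU replicates 1 and 2 (0.185 and 0.0552), and with all 18 libraries in the fit (0.0575). Hk2, the inducible hexokinase, had 35.1, 33.3 and 33.2 CPM in MG_5FU and 54.1, 40.04 and 42.6 CPM in MG_Control, and 42.3, 53.5 and 58.7 CPM in COL_5FU against 79.7, 70.7 and 78 CPM in COL_Control. Groups did not overlap in either matrix, and its fold changes were -0.37 ± 0.13 (SE, edgeR adjusted p = 0.045) in Matrigel and -0.59 ± 0.13 (SE, edgeR adjusted p = 0.00302) in collagen. The Matrigel call was lost with the replicate block (edgeR adjusted p = 0.0511), with all 18 libraries in the fit (0.105), in limma on TPM (0.172), without MG_Control replicate 1 or 3 (0.207 and 0.0623), and without MG_5FU replicate 1, 2 or 3 (0.0849, 0.118 and 0.121). The collagen call of Hk2 was lost in limma on TPM (adjusted p = 0.0628). Pgk1, which yields the first ATP of the pathway, had 346, 233 and 219.8 CPM in MG_5FU and 579.6, 432 and 366 CPM in MG_Control, a fold change of -0.73 ± 0.19 (SE, edgeR adjusted p = 0.00958), which was lost without MG_Control replicate 1 or MG_5FU replicate 3 (0.0525 each). It had 373, 523 and 508 CPM in COL_5FU and 742, 657 and 819 CPM in COL_Control, a fold change of -0.69 ± 0.19 (SE, edgeR adjusted p = 0.0117), lost without COL_5FU replicate 1 (0.0623). Tpi1, the triose phosphate isomerase, was lower by 0.74 ± 0.18 in Matrigel and by 0.59 ± 0.18 in collagen, the second lost without COL_Control replicate 3 or COL_5FU replicate 1 (edgeR adjusted p = 0.0642 and 0.101). Pgam1, a phosphoglycerate mutase, was lower in Matrigel by 0.73 ± 0.14 and at -0.29 ± 0.14 in collagen, where it did not pass. Gpi1 and Aldoc, an isomerase and an aldolase, were lower in collagen, by 1.06 ± 0.21 and 1.82 ± 0.38, and were not called in Matrigel. Hk1, Aldoa, Gapdh, Eno1 and Pkm passed the test in neither matrix. Their log2 fold changes lay between -0.61 and -0.02 in Matrigel and between -0.61 and 0.00 in collagen. The 4 other than Hk1 were called lower in Matrigel when TPM were tested with limma. That test moved the median of all genes to -0.22 in place of 0.06, and 28.2% of all calls were higher in place of 62.2%. Aldoa, at -0.61 ± 0.23 and -0.61 ± 0.23 (SE), was called lower in both matrices with the replicate numbers as a block.

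Of the 3 genes that set the fate of pyruvate, 1 was lower and 1 higher with 5-FU in each matrix. Pdk1, the kinase that shuts pyruvate out of the mitochondrial pyruvate dehydrogenase, had 57.04, 46.9 and 40.8 CPM in MG_5FU and 279.9, 177 and 186 CPM in MG_Control, a log2 fold change of -2.09 ± 0.26 (SE, edgeR adjusted p = 4.7e-05). In collagen it had 25.8, 48.8 and 58.3 CPM in COL_5FU and 248, 354 and 331 CPM in COL_Control, a log2 fold change of -2.84 ± 0.27 (SE, edgeR adjusted p = 5.85e-06). All 5-FU libraries lay far below all untreated ones. Ldhb, the subunit of lactate dehydrogenase typical of oxidative tissues, went the other way: it had 9.1, 15.5 and 12.8 CPM in MG_5FU and 0.33, 0.179 and 0.213 CPM in MG_Control. It had 32.04, 24.3 and 16.5 CPM in COL_5FU and 2.52, 0.542 and 1.12 CPM in COL_Control. Fold changes were 5.74 ± 0.53 (SE, edgeR adjusted p = 3.47e-06) in Matrigel, where the control libraries held 9, 5 and 7 counts, and 4.08 ± 0.45 (SE, edgeR adjusted p = 1.82e-05) in collagen. Even so, Ldhb made up at most 1.36% of the summed Ldha and Ldhb TPM in any library. Ldha itself had 4085, 2756 and 2539 CPM in MG_5FU, against 5545, 3913 and 3387 CPM in MG_Control, and 3483, 4870 and 4885 CPM in COL_5FU, against 5577, 5608 and 5934 CPM in COL_Control. Its fold changes of -0.39 ± 0.19 and -0.40 ± 0.19 (SE) passed the test in neither matrix. Of 12 genes of pyruvate entry to mitochondria outside the 35, 1 was higher and 3 lower with 5-FU in Matrigel. In collagen 2 were higher and 1 lower, so that 33.3% and 25% were called, beside 30.9% and 35.3% of all genes. The higher one in Matrigel was Pdk4, a kinase related to Pdk1, at 3.23 ± 0.87 (SE). The phosphatase Pdp2 was lower in both, at -1.19 ± 0.16 and -1.54 ± 0.16 (SE).

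Neither HIF alpha subunit was called lower. Hif1a, the subunit found in most cells, had 101, 92.03 and 86.7 CPM in COL_5FU and 51.5, 64.01 and 55.5 CPM in COL_Control, with no overlap and a fold change of 0.68 ± 0.20 (SE, edgeR adjusted p = 0.0199). The call was lost without COL_Control replicate 1 or 3 (edgeR adjusted p = 0.0673 and 0.0606), without COL_5FU replicate 1 (0.0598), with all 18 libraries in the fit (0.0693) and in limma on TPM (0.161). In Matrigel it had 73.9, 97.6 and 112 CPM in MG_5FU and 58.5, 83.7 and 108 CPM in MG_Control, overlapping groups that did not pass the test. Epas1, the alpha subunit first known from endothelium, had 11.97, 11 and 12.4 CPM in MG_5FU and 5.16, 7.87 and 8.63 CPM in MG_Control, a fold change of 0.75 ± 0.22 (SE, edgeR adjusted p = 0.0183). Its call was lost without MG_Control replicate 1 (edgeR adjusted p = 0.0601), without MG_5FU replicate 3 (0.0563) and in limma on TPM (0.538), and in collagen its fold change of -0.11 ± 0.22 (SE) did not pass.

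Among the prolyl hydroxylases, which mark HIF alpha for degradation and are HIF targets themselves, Egln1 was lower in both matrices, by 0.93 ± 0.12 in Matrigel and 0.80 ± 0.12 in collagen. Egln3 had fold changes of -1.03 ± 0.39 and -0.98 ± 0.38 (SE), at edgeR adjusted p = 0.0593 and 0.0594. Of the 8 other hypoxia response genes, 5 were lower with 5-FU in Matrigel and 4 in collagen. Ak4, a mitochondrial adenylate kinase, had 11.04, 3.1 and 2.03 CPM in MG_5FU and 86.8, 40.2 and 29.3 CPM in MG_Control, the largest fall among members in Matrigel at -3.17 ± 0.62 (SE, edgeR adjusted p = 0.00142). Bnip3, a mitophagy receptor, had 30.6, 19.9 and 16.9 CPM in MG_5FU and 151, 85.2 and 60.4 CPM in MG_Control, a fold change of -2.07 ± 0.36 (SE, edgeR adjusted p = 0.000583), and 46.4, 97.7 and 112 CPM in COL_5FU against 213, 239.9 and 311 CPM in COL_Control, at -1.60 ± 0.34 (SE). In collagen Ak4 had 18.03, 47.8 and 76.8 CPM in COL_5FU and 121, 171 and 187 CPM in COL_Control, so that no 5-FU library of either gene reached a control library of its matrix. The collagen call of Ak4, at -1.77 ± 0.55 (SE, edgeR adjusted p = 0.023), was lost without COL_Control replicate 2 or 3 (0.0578 and 0.0652) or COL_5FU replicate 1 or 2 (0.0798 and 0.0682). Vegfa, the endothelial growth factor, was lower by 1.60 ± 0.27 in Matrigel and 1.76 ± 0.27 in collagen. Car9, the cell-surface carbonic anhydrase, and P4ha1, a collagen prolyl hydroxylase subunit, passed in neither. Ankrd37, an ankyrin repeat gene induced by hypoxia, and P4ha2, the second collagen prolyl hydroxylase subunit, were lower in Matrigel, at -1.61 ± 0.47 (SE, edgeR adjusted p = 0.0193) and -0.83 ± 0.25 (SE, edgeR adjusted p = 0.0203). Both calls were lost without any of MG_Control replicates 1 and 2 and MG_5FU replicates 2 and 3, at edgeR adjusted p between 0.0511 and 0.117, and that of P4ha2 also with all 18 libraries in the fit (0.056).

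**Figure D2:**
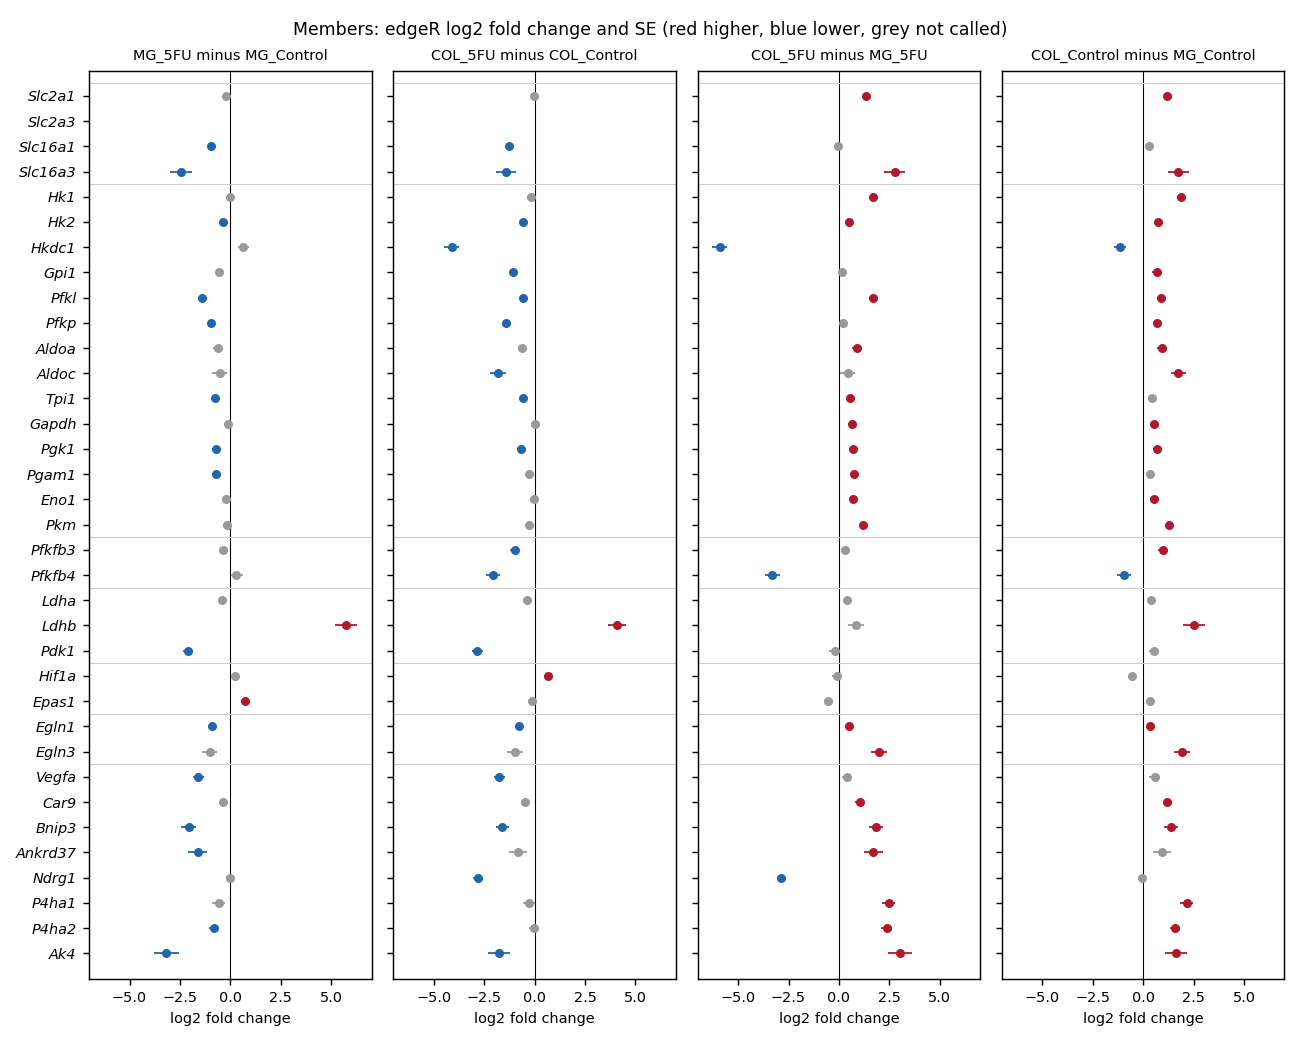
edgeR log2 fold changes with standard errors of the 34 tested members, by role from top to bottom, in the 5-FU comparisons (left pair) and the matrix comparisons (right pair); red marks higher, blue lower and grey no call. Blue prevails in the 5-FU panels, with 15 and 18 lower calls, and red in the matrix panels, with 20 and 22 higher calls.

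The 5-FU response differed between the matrices for 3 of 34 members, all with a lower value in collagen, against 6.3% of all genes lower and 1.88% higher in the same interaction test, so that the count itself lay near the share of all genes. Without the filter on low counts 3 members were higher and 5 lower, and with DESeq2 1 was higher and 3 were lower. Over all genes, 6.2% and 13.4% were called in either direction in these 2 fits. Leaving out COL_5FU replicate 1 gave 1 higher and 3 lower, leaving out MG_Control replicate 1 gave none higher and 4 lower, and leaving out COL_Control replicate 3 or MG_5FU replicate 1 gave none higher and 3 lower. Hkdc1, a hexokinase of epithelia, had 1.07, 1.77 and 3.36 CPM in COL_5FU and 20.4, 42.6 and 44.5 CPM in COL_Control, a fold change of -4.11 ± 0.36 (SE, edgeR adjusted p = 3.4e-06). In Matrigel it had 109, 116 and 137 CPM in MG_5FU and 98.8, 66.9 and 74.5 CPM in MG_Control, a fold change of 0.65 ± 0.29 (SE) that did not pass the test. COL_5FU libraries held at most 3.36 CPM, while every MG_5FU library lay above every MG_Control library. The difference of the fold changes was -4.75 ± 0.47 (SE, edgeR adjusted p = 7.26e-05). Ndrg1, a stress and differentiation gene induced by hypoxia, had 29.1, 50.4 and 53.4 CPM in COL_5FU and 233, 309 and 368 CPM in COL_Control, a fold change of -2.81 ± 0.24 (SE, edgeR adjusted p = 2.6e-06). In Matrigel its values overlapped, with 301, 287 and 313 CPM in MG_5FU and 412, 294 and 239 CPM in MG_Control, and the difference of fold changes was -2.80 ± 0.33 (SE, edgeR adjusted p = 0.000203). Pfkfb4, which sets the level of the phosphofructokinase activator, had 1.4, 6.21 and 4.43 CPM in COL_5FU and 11.1, 19.4 and 18.8 CPM in COL_Control, a fold change of -2.06 ± 0.36 (SE, edgeR adjusted p = 0.000703). It had 37.9, 38.1 and 36.9 CPM in MG_5FU and 32.99, 27.5 and 35.2 CPM in MG_Control, and the difference was -2.35 ± 0.49 (SE, edgeR adjusted p = 0.00996). Each of these 3 differences kept its call and direction in all alternatives run. The related Pfkfb3 was lower in collagen by 0.98 ± 0.22 and not called in Matrigel at -0.35 ± 0.22, but the difference between the matrices did not pass, at -0.64 ± 0.31 (SE, edgeR adjusted p = 0.251). The same holds for Gpi1 and Aldoc, called lower only in collagen, and for Pgam1, Ankrd37 and P4ha2, called lower only in Matrigel, for none of which the difference passed.

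**Figure D3:**
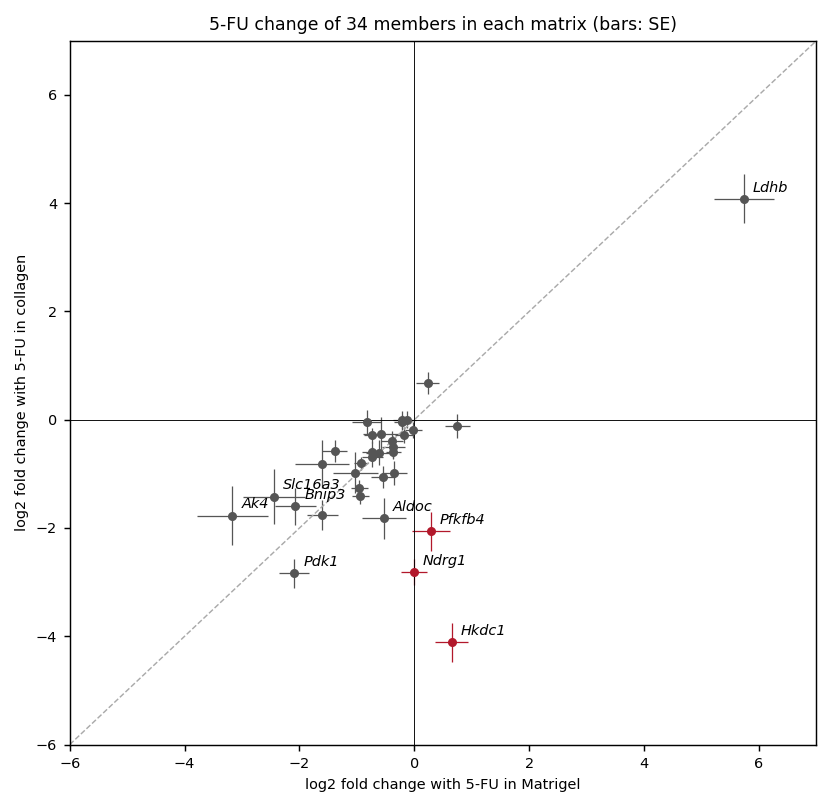
Log2 fold change with 5-FU in collagen (vertical) against Matrigel (horizontal) for the 34 tested members, with standard errors and a dashed line of equal change. Hkdc1, Ndrg1 and Pfkfb4, in red, passed the interaction test and lie below the line at differences of -4.75, -2.80 and -2.35, and Ldhb stands apart at the upper right.

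The second question was how the matrix condition itself set these genes. Without 5-FU, 22 of 34 members were higher in COL_Control than in MG_Control and 2 were lower, against 15.8% and 15.4% of all genes tested, with a median log2 fold change of 0.72 beside 0.04. Under 5-FU, 20 were higher and 3 lower in COL_5FU than in MG_5FU, against 17% and 18.6%, with a median of 0.69 beside 0. The higher calls shared 17 genes, 17 of the 22 and 17 of the 20. They were Slc2a1, Slc16a3, Hk1, Hk2, Pfkl, Aldoa, Gapdh, Pgk1, Eno1, Pkm, Egln1, Egln3, Car9, Bnip3, P4ha1, P4ha2 and Ak4. Here too the overlap over all genes was not computed. Of the 22 higher calls without 5-FU, 7 (Slc16a3, Gpi1, Gapdh, Pgk1, Eno1, Egln1 and Ak4) were lost without at least 1 of MG_Control replicates 2 and 3 and COL_Control replicates 1, 2 and 3, at edgeR adjusted p between 0.052 and 0.135. Tpi1 and Ankrd37 were lost in the same way under 5-FU. MG_Control and COL_Control libraries also entered the 5-FU comparisons. Without MG_Control replicate 1 the untreated comparison called 25 higher and 2 lower, without COL_Control replicate 3 it called 16 and 1, and the treated comparison called 23 and 3 without COL_5FU replicate 1 and 21 and 3 without MG_5FU replicate 1. Tested on TPM with limma, which moved the median of all genes to 0.23 and 0.36, the counts were 27 higher and 1 lower without 5-FU and 24 and 3 under it, and 72.8% and 80.5% of all calls were higher in place of 50.7% and 47.8%.

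Glucose entry and the first step of glycolysis were among the changed genes. Slc2a1 had 302, 283 and 284 CPM in COL_Control and 158, 124 and 95.7 CPM in MG_Control, a fold change of 1.20 ± 0.15 (SE, edgeR adjusted p = 4.2e-05), and it was higher by 1.36 ± 0.15 under 5-FU. Hk1, the housekeeping hexokinase, had 93.05, 91.9 and 89.8 CPM in COL_Control and 33.5, 20.3 and 22.1 CPM in MG_Control, a fold change of 1.85 ± 0.16 (SE, edgeR adjusted p = 1.62e-06). Under 5-FU the fold change was 1.68 ± 0.15 (SE), with 74.1, 93.8 and 78.1 CPM in COL_5FU and 25.8, 21.5 and 24.6 CPM in MG_5FU. Slc16a3 was higher by 2.76 ± 0.54 (SE, edgeR adjusted p = 0.00132) under 5-FU, where it had 67.5, 175 and 212 CPM in COL_5FU and 41.7, 10.1 and 10.9 CPM in MG_5FU. Further down the pathway Aldoc, the aldolase best known from brain, had 163, 169 and 198 CPM in COL_Control and 78.7, 42.8 and 38.2 CPM in MG_Control, a fold change of 1.74 ± 0.38 (SE, edgeR adjusted p = 0.00353). Pkm was higher by 1.28 ± 0.15 without 5-FU and 1.18 ± 0.15 with it. Ldha, in contrast, was called in neither comparison, at 0.41 ± 0.19 and 0.41 ± 0.19 (SE).

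The collagen prolyl hydroxylase subunits and Egln3 showed large differences between the matrices. P4ha1 had 111, 123 and 129.5 CPM in COL_Control and 42.7, 21.7 and 17.9 CPM in MG_Control, a fold change of 2.15 ± 0.33 (SE, edgeR adjusted p = 0.000235). Under 5-FU it had 75.1, 112 and 123 CPM in COL_5FU and 26.96, 13.99 and 11.5 CPM in MG_5FU, a fold change of 2.47 ± 0.33 (SE, edgeR adjusted p = 6.43e-05). P4ha2 had 50.3, 53.2 and 54.9 CPM in COL_5FU and 11.7, 8.43 and 8.72 CPM in MG_5FU, a fold change of 2.36 ± 0.25 (SE, edgeR adjusted p = 7.51e-06). In none of these did a collagen library overlap a Matrigel library. Egln3 had 222, 206 and 265 CPM in COL_Control and 95.9, 53.9 and 32.4 CPM in MG_Control, a fold change of 1.94 ± 0.39 (SE, edgeR adjusted p = 0.00192). Ak4 had 18.03, 47.8 and 76.8 CPM in COL_5FU and 11.04, 3.1 and 2.03 CPM in MG_5FU, a fold change of 3.03 ± 0.61 (SE, edgeR adjusted p = 0.00167). Hif1a was not called, at -0.56 ± 0.20 (SE, edgeR adjusted p = 0.0512) without 5-FU and -0.12 ± 0.20 with it, and neither was Epas1, at 0.35 ± 0.22 and -0.52 ± 0.22 (SE). The first of these Hif1a values became a lower call in 6 alternatives, among them leaving out MG_Control replicate 1.

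Lower in collagen in both comparisons were Hkdc1 and Pfkfb4. Hkdc1 fell by 1.16 ± 0.30 without 5-FU (SE, edgeR adjusted p = 0.00932) and by 5.92 ± 0.38 under it (SE, edgeR adjusted p = 6.44e-08), with the library values given above. Pfkfb4 had fold changes of -0.97 ± 0.34 (SE, edgeR adjusted p = 0.0448) without 5-FU and -3.31 ± 0.38 (SE, edgeR adjusted p = 1.39e-05) under it. Its untreated call was lost when any one of the 6 libraries was left out, with edgeR adjusted p between 0.0628 and 0.152, with library totals alone (0.0653), with all 18 libraries in the fit (0.0576) and in limma on TPM (0.127). Ndrg1 was lower in collagen under 5-FU, at -2.85 ± 0.24 (SE, edgeR adjusted p = 9.77e-07), and was -0.05 ± 0.23 (SE) without it.

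Shares within the listed hexokinases and within the pair Pfkfb3 and Pfkfb4 differed between the matrices, and are given with no test. Hk3, Pfkfb1 and Pfkfb2 were not in these sums. Hkdc1 made up 1.22% ± 0.609 of the summed hexokinase TPM (Hk1, Hk2 and Hkdc1) in COL_5FU, 17.7% ± 7.04 in COL_Control, 62.4% ± 4.65 in MG_5FU and 50.4% ± 1.51 in MG_Control (SD, n = 3 each). Hk1 went the other way, with 50.9% in COL_5FU, 39.7% in COL_Control, 11.1% in MG_5FU and 15.3% in MG_Control. Pfkfb4 gave 14.9% ± 7.58 of the summed Pfkfb3 and Pfkfb4 TPM in COL_5FU, 30.6% ± 8.83 in COL_Control, 73.6% ± 1.65 in MG_5FU and 63.5% ± 7.41 in MG_Control (SD, n = 3 each). For Hkdc1 and Pfkfb4 every crypt-derived library in collagen with ENRW medium lay below every Matrigel library. By contrast Pkm gave at least 95.7% of the summed Pkm and Pklr TPM in every library, and Ldha at least 98.6% of its family.

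**Figure D4:**
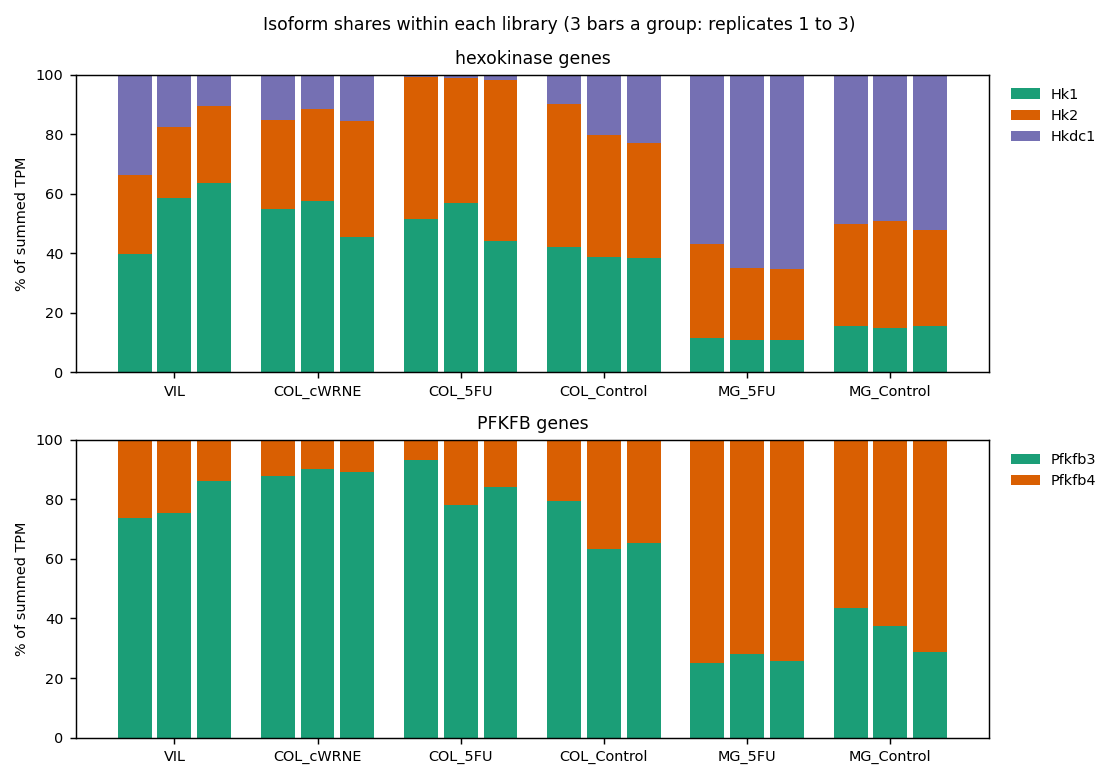
Share of each isoform in the summed TPM of Hk1, Hk2 and Hkdc1, or of Pfkfb3 and Pfkfb4, within each of the 18 libraries. Each bar is 1 library. Hkdc1 and Pfkfb4 take 17.7% and 30.6% of these sums on average in COL_Control and 50.4% and 63.5% in MG_Control.

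The third question was how villus-derived cultures compared with crypt-derived ones. Between VIL and COL_cWRNE, which shared matrix and medium, 2 of 35 members were higher and none lower, against 5.68% and 1.96% of all 16699 genes tested, and the members' median was 0.00 beside -0.03. At an unadjusted p under 0.05, edgeR gave 3 higher and none lower, a count for which no share over all genes was computed. DESeq2 called 2 higher and none lower, beside 13.6% of all genes called in either direction. No member was called without COL_cWRNE replicate 2. Ldhb had 6.76, 12.1 and 23.5 CPM in VIL and 0.978, 1.29 and 0.0337 CPM in COL_cWRNE, a fold change of 4.19 ± 0.88 (SE, edgeR adjusted p = 0.0218). Its order over VIL replicates is that of the immune markers, at 1252, 3770 and 5991 summed TPM, and the part of these cells in the result was not tested. With VIL replicate 1, which had the fewest immune and fibroblast markers, as the only villus library, the Ldhb fold change was 3.15 at an edgeR adjusted p of 0.0992, where the lone library is assumed to vary like the other groups. The call was also lost with the replicate block (0.0586), with only the compared groups in the fit (0.0571), without COL_cWRNE replicate 1 or 2 (0.0835 and 0.0558) and without VIL replicate 2 (0.0503). Pfkfb4 had 24.04, 19.2 and 21.3 CPM in VIL and 12.8, 7.46 and 10.9 CPM in COL_cWRNE, a fold change of 1.06 ± 0.22 (SE, edgeR adjusted p = 0.0231). That call was lost without COL_cWRNE replicate 2 or 3 (edgeR adjusted p = 0.0613 and 0.0756), with all 18 libraries in the fit (0.0543), with only the compared groups (0.0623) and in limma on TPM (0.0502).

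Slc2a3, which leukocytes are known to use for glucose uptake, was read mainly in VIL. It had 0, 0.926 and 8.06 CPM in VIL, 0.384, 0 and 0 CPM in COL_cWRNE and 0 in all MG_Control libraries. The highest value was in the VIL library with most immune markers, and replicate 1 with the fewest had none; the part of immune cells was not tested. Over the group VIL held 208 counts against 0 in MG_Control, at least 76.2-fold higher when MG_Control is set to 3 counts over the group. It passed the filter on low counts through 2 VIL libraries and 1 COL_cWRNE library, so that its value could differ from MG_Control in 1 direction only, and its call is not used as a test. The leukocyte hexokinase Hk3, not one of the 35, followed the same order, with 7.96, 26 and 49.1 CPM in VIL and 0 in every COL_cWRNE library, and the part of immune cells in it was not tested either.

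**Figure D5:**
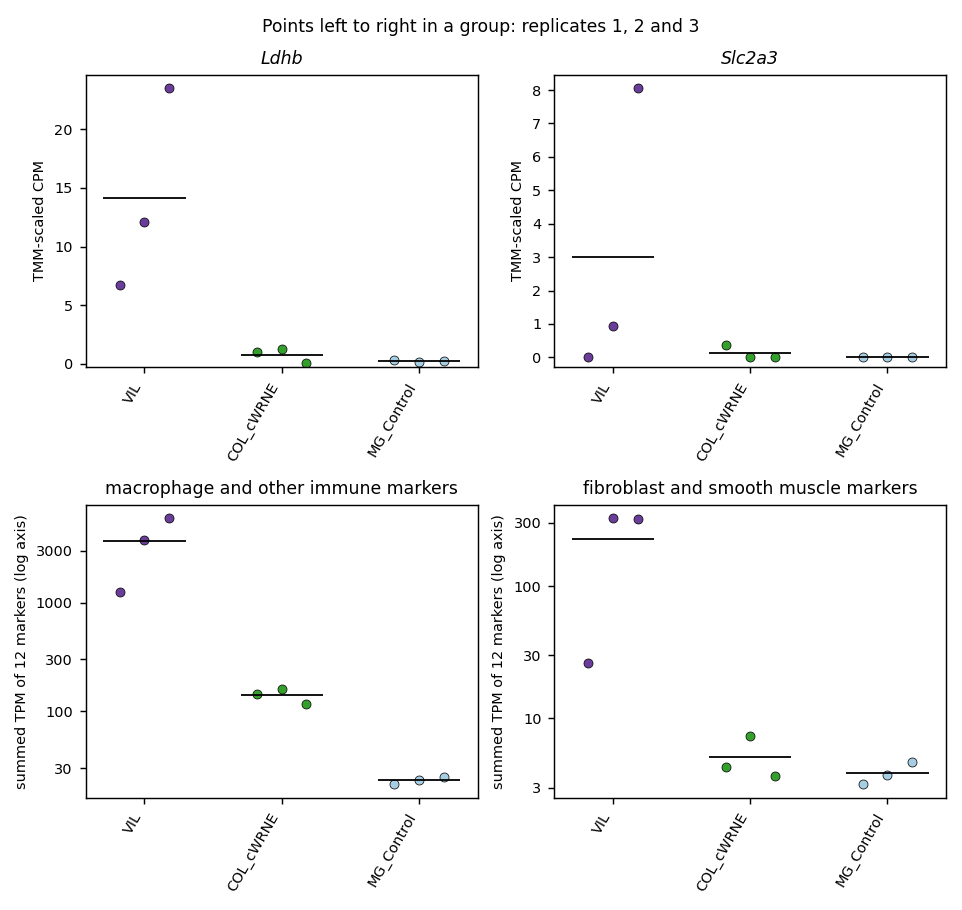
Ldhb and Slc2a3 in TMM-scaled CPM (top) and summed TPM of 12 immune and 12 fibroblast and smooth muscle markers on a log axis (bottom), in VIL, COL_cWRNE and MG_Control; points are replicates 1, 2 and 3 from left to right and lines group means. VIL replicate 3 holds the highest Ldhb, Slc2a3 and immune values, at 23.5 CPM, 8.06 CPM and 5991 TPM.

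Against MG_Control, from which they differed in matrix and medium, VIL had 22 of 35 members higher and 1 lower, beside 27% and 19.7% of all genes, and COL_cWRNE had 22 higher and 1 lower, beside 20.1% and 13.1%. The VIL count includes Slc2a3, and the other 34 members had 21 higher and 1 lower. Members' medians were 0.95 and 0.96, beside 0.02 and -0.01 over all genes. The 2 comparisons share the MG_Control libraries, so their values are given side by side only. With VIL replicate 1 as the only villus library, edgeR called 23 members higher and none lower, but this takes the spread from the other groups and assumes that the lone library varies like them. Without MG_Control replicate 1 the counts were 25 higher and none lower for VIL, and 23 higher and 1 lower for COL_cWRNE. Without COL_cWRNE replicate 2 that group had 21 higher and 1 lower. Hk1 had 190, 216 and 341 CPM in VIL, 199, 202 and 193 CPM in COL_cWRNE and 33.5, 20.3 and 22.1 CPM in MG_Control, with fold changes of 3.25 ± 0.26 (SE, edgeR adjusted p = 3.97e-05) for VIL and 2.92 ± 0.26 (SE, edgeR adjusted p = 5.27e-05) for COL_cWRNE. Egln3 had 544, 482 and 618 CPM in VIL, 457, 389 and 517 CPM in COL_cWRNE and 95.9, 53.9 and 32.4 CPM in MG_Control, with fold changes of 3.13 ± 0.35 (SE, edgeR adjusted p = 0.000169) and 2.86 ± 0.34 (SE, edgeR adjusted p = 0.000286). Both groups lay wholly above MG_Control for these genes. Pfkfb3, the partner of Pfkfb4 with strong kinase activity, had 90.9, 74.97 and 173 CPM in VIL, 119.6, 112 and 151 CPM in COL_cWRNE and 37.3, 20.3 and 17.1 CPM in MG_Control, with 2.14 ± 0.36 and 2.31 ± 0.37 (SE, edgeR adjusted p = 0.00134). P4ha1 and P4ha2 were higher by 2.88 ± 0.42 and 2.65 ± 0.40 in VIL and by 2.24 ± 0.41 and 2.40 ± 0.39 in COL_cWRNE (SE), and VIL replicate 3 held their highest values, at 335.9 and 184.5 CPM. The lower call was Pfkfb4 in both, at -1.66 ± 0.23 (SE, edgeR adjusted p = 0.000561) in COL_cWRNE and -0.61 ± 0.22 (SE, edgeR adjusted p = 0.046) in VIL, where it was lost when any one library was left out, at edgeR adjusted p between 0.0598 and 0.172, with RLE scaling (0.055), without the filter (0.0989), with all 18 libraries in the fit (0.176) and in limma on TPM (0.101). Ldhb was higher in VIL by 5.81 ± 0.98 (SE, edgeR adjusted p = 0.00142) and not called in COL_cWRNE. Ldha, Pdk1, Slc16a1 and Hif1a were called in neither. Hif1a in VIL ranged widely, with 57.3, 56.4 and 132 CPM, the highest again in replicate 3.

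Within collagen, COL_cWRNE and COL_Control differed in medium. Of 35 members 4 were higher in COL_cWRNE and none was lower, against 13.1% and 4.85% of all 17708 genes tested, and the median was 0.19 beside 0. At an unadjusted p under 0.05, edgeR gave 12 higher and none lower, a count for which no share over all genes was computed. DESeq2 called 7 higher and none lower, beside 22.2% of all genes called in either direction. With only the compared groups in the fit, 12 were higher and 2 lower, beside 26.8% of all genes called in either direction. The lower ones were Pfkl and Ak4. The number called was 2 when COL_Control replicate 1 or 2, or COL_cWRNE replicate 1 or 3, was left out, and 3 without COL_Control replicate 3 or COL_cWRNE replicate 2, all of them higher. Pfkfb3 had 119.6, 112 and 151 CPM in COL_cWRNE and 48, 48.1 and 48.6 CPM in COL_Control, a fold change of 1.40 ± 0.29 (SE, edgeR adjusted p = 0.00281). Hk1 had 199, 202 and 193 CPM in COL_cWRNE and 93.05, 91.9 and 89.8 CPM in COL_Control, a fold change of 1.11 ± 0.20 (SE, edgeR adjusted p = 0.000996). Every COL_cWRNE library exceeded every COL_Control library for both. Ndrg1 and Slc2a1 were higher by 0.94 ± 0.29 (SE, edgeR adjusted p = 0.0321) and 0.57 ± 0.18 (SE, edgeR adjusted p = 0.0436). The Ndrg1 call was lost without COL_Control replicate 1 or 2 (edgeR adjusted p = 0.124 and 0.0859) or COL_cWRNE replicate 1 or 3 (0.0598 and 0.142), with library totals alone (0.0706) and in limma on TPM (0.0708). The Slc2a1 call was lost when any one library was left out (edgeR adjusted p = 0.0797 to 0.139), with the replicate block (0.0592), RLE scaling (0.055), library totals alone (0.153) or the 10 CPM filter (0.0629), and in limma on TPM (0.117).

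Set in order of group means, Slc2a1 stood at 428.5 ± 18.6 CPM in COL_cWRNE, 385.3 ± 111 in VIL, 289.5 ± 10.5 in COL_Control, 285.2 ± 44.4 in COL_5FU, 125.7 ± 31 in MG_Control and 104 ± 4.77 in MG_5FU (SD, n = 3 each). The neighbours COL_cWRNE and VIL, COL_Control and COL_5FU, and MG_Control and MG_5FU overlapped. Hif1a had a narrower range of means, with 94.5 ± 19.3 in MG_5FU, 93.1 ± 7.01 in COL_5FU, 87.2 ± 8.80 in COL_cWRNE, 83.3 ± 24.5 in MG_Control, 81.9 ± 43.3 in VIL and 57 ± 6.37 in COL_Control (SD, n = 3 each), and all neighbours overlapped in range.

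Other genes of these pathways came from 7 lists, whose counts are set beside the share of all genes called in either direction. That share was 30.9% with 5-FU in Matrigel, 35.3% with 5-FU in collagen, 31.2% for the matrix without 5-FU and 35.5% under it. Of 30 tested among 32 other hypoxia response targets, 5 were higher and 11 lower with 5-FU in Matrigel, and 2 were higher and 9 lower in collagen. These are 53.3% called in Matrigel and 36.7% in collagen, the second near the share of all genes. Ero1a, an oxidase of the endoplasmic reticulum also named Ero1l, had 151, 152 and 140.5 CPM in MG_5FU and 671, 518 and 383 CPM in MG_Control, and was lower by 1.77 ± 0.27 in Matrigel and 1.95 ± 0.27 in collagen. Against that direction ran the collagen lysyl hydroxylase Plod2, higher by 3.96 ± 0.25 (SE, edgeR adjusted p = 1.16e-07) in Matrigel and 1.74 ± 0.21 (SE, edgeR adjusted p = 3.42e-05) in collagen, and the lipase inhibitor Angptl4, higher by 1.54 ± 0.23 and 1.88 ± 0.23. In the matrix comparisons 15 targets were higher and 2 lower in COL_Control, and 14 higher and 3 lower in COL_5FU, 56.7% called in each. Against MG_Control, 20 of 31 tested were higher in VIL and 16 of 31 in COL_cWRNE, with none lower, or 64.5% and 51.6% called, beside 46.6% and 33.3% of all genes. Between VIL and COL_cWRNE 2 were higher and none lower, or 6.45% called beside 7.64% of all genes.

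Other hexose and lactate transporters and genes of gluconeogenesis, some of them typical of villus enterocytes, were next counted in the matrix comparisons. Of 12 tested other hexose and lactate transporters, 4 were higher and 6 lower in COL_Control than in MG_Control, and 3 were higher and 7 lower in COL_5FU than in MG_5FU, 83.3% called in each. The fructose transporter Slc2a5 had 0.828, 1.52 and 3.23 CPM in COL_Control and 52.5, 35.9 and 30.4 CPM in MG_Control, and Slc2a2, the basolateral hexose exporter, was lower by 4.97 ± 0.34. Bsg, the chaperone of the lactate transporters, was higher by 1.43 ± 0.17. All but 1 of the 8 gluconeogenic genes were lower in COL_Control, with Fbp1 at -2.42 ± 0.34 and Pck1 at -3.56 ± 0.55, and the pyruvate carboxylase Pcx was higher by 1.09 ± 0.12. In COL_5FU 1 of the 8 was higher and 6 were lower than in MG_5FU. Of 12 genes of pyruvate entry to mitochondria, 8 were lower in COL_Control and none was higher, 66.7% called, while 4 were lower and 1 higher in COL_5FU, or 41.7% called. In COL_Control the pyruvate carrier subunits Mpc1 and Mpc2 were lower, at -0.75 ± 0.10 and -1.24 ± 0.14 (SE). So was Pdk2, a kinase related to Pdk1, at -1.15 ± 0.14 (SE). The list thus holds genes that act for and against such entry, and its counts give no direction for it. With 5-FU, 5 of those transporters were higher and none lower in Matrigel, and 3 were higher and 2 lower in collagen, 41.7% called in each. The mitochondrial Pck2 fell in both matrices, by 2.64 ± 0.13 and 2.19 ± 0.13, while Pcx rose by 1.61 ± 0.13 and 1.03 ± 0.12 (log2, SE). Of 12 other components of the HIF pathway, 1 was higher and none lower with 5-FU in Matrigel, or 8.33% called, and 3 were higher and 3 lower in collagen, or 50% called. In COL_Control 2 were higher and 1 lower, or 25% called, under the share of all genes. Arnt, the partner of the alpha subunits, was higher in COL_Control by 0.67 ± 0.13. Among 13 tested other glycolytic enzymes, 4 were higher and 2 lower with 5-FU in Matrigel and none was higher and 6 were lower in collagen, 46.2% called in each. The 8 genes of the pentose phosphate pathway had 1 higher and 3 lower with 5-FU in Matrigel and 2 higher and 3 lower in collagen, or 50% and 62.5% called.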

How the data were processed

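PolyA RNA from 18 organoid cultures was made into SMART-Seq and Nextera XT libraries and sequenced on a NovaSeq X Plus, per the labels' protocols. The authors deposited estimated counts per gene, not scaled between libraries, per the file headers, and 67.8% of the values above 0 were whole (tolerance 1e-09). The authors also deposited TPM, which sum to 1000000 in each library. The submitters' processing notes name bcl2fastq 2.20, DRAGEN and the GRCm39 build. The counter and its annotation are not given in the sources used here, and overlapping or near-identical genes could share reads.

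Estimated counts were rounded and tested with edgeR 4.0.16 (R 4.3.3), using TMM scaling, quasi-likelihood F-tests, its expression filter (minimum count 10, minimum total 15), and Benjamini-Hochberg adjustment over all genes at 0.05. A standard error is the absolute log2 fold change over the square root of F. One fit held the 12 libraries of the 5-FU and matrix comparisons, another the 9 of the VIL, COL_cWRNE and MG_Control comparisons, and the medium comparison used all 18. Spread is thus shared between groups. Alternatives were DESeq2 1.42.0, limma 3.58.1 on log2(TPM + 1), other scalings and filters, other sets of libraries, a replicate block and leaving out each library. The tests were tried on simulated counts with known changes.

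The 35 genes, the marker lists and the lists of related genes were chosen with earlier results of these data known. Library values are given for up to 4 called genes per direction and comparison with the largest fold change and at least 5 TPM. Exceptions are P4ha1 and P4ha2 in VIL and COL_cWRNE against MG_Control, and Ndrg1 and Slc2a1 in the medium comparison. Hif1a, Epas1, Slc2a1, Ldha, Ldhb and Hk2 are also given by library, most of them in some groups only. Other genes were named to show a role or a group after their values were seen. Of each list of related genes, up to 3 called ones with the smallest adjusted p could be named. Same-numbered libraries were taken as paired where the correlation of their deviations from group means exceeded 0.1 in all 3 pairs. This held for 5-FU in Matrigel (0.135 to 0.543), 5-FU in collagen (0.153 to 0.445) and the medium comparison (0.207 to 0.277), though the labels do not say what a number marks. By Xist and Y-linked counts the number went with sex in every group, also where it did not pair the samples by this rule. The main fits held no term for sex. No 2 libraries of a group agreed within counting noise (lowest chi-square per degree of freedom 10.6). Promoters came from a RefSeq table on another build (GRCm38.p6), matched by symbol.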

Additional observations from a re-analysis of the deposited data

Results flagged for a closer look

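The change with 5-FU differed between collagen and Matrigel, by an interaction test in edgeR, for 3 of the 34 glycolysis and hypoxia genes tested, 8.82%, near the 8.19% of all genes. The count is thus no result about the set, and each gene is given for its own size. The hexokinase Hkdc1 had a difference in log2 fold change, collagen minus Matrigel, of -4.75 ± 0.47 (SE, edgeR adjusted p = 7.26e-05), with a 5-FU fold change of -4.11 in collagen and 0.65 in Matrigel. For Ndrg1 the difference was -2.80 ± 0.33 (SE, edgeR adjusted p = 0.000203). Pfkfb4 had a difference of -2.35 ± 0.49 (SE, edgeR adjusted p = 0.00996). Each of the 3 passed in the alternatives that were run.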

How the results depend on the processing

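Over 310 fold changes of single genes, 4839 alternative values were computed: 4489 kept their side of the threshold, 181 lost and 169 gained a call, and none turned a called direction. Among the 4489, 181 differed in sign where neither fit made a call. The number of members called for the difference in 5-FU response between matrices was 3 and became 8 without a filter on low counts, 3 of them higher and 5 lower. Between VIL and COL_cWRNE it was 2 and became 1 with at least 10 CPM in 3 libraries, 1 with limma on TPM, 1 with the replicate block, 1 with all 18 libraries in the fit and 0 with only the compared groups. Leaving out 1 library gave 0 to 2 there. Between COL_cWRNE and COL_Control it was 4 and became 2 with library totals, 7 without a filter, 7 with DESeq2, 2 with limma on TPM and 14 with only the compared groups (12 higher, 2 lower), and 2 to 3 when 1 library was left out. Causes were not tested. The other counts stayed within 1.5 times their value in every alternative: leaving out 1 library gave 12 to 20 called with 5-FU in Matrigel, 14 to 22 in collagen, 16 to 27 and 21 to 26 for the matrix without and with 5-FU, and 18 to 25 and 17 to 24 for VIL and COL_cWRNE against MG_Control. Calls lost in at least 1 such case were Gpi1, Eno1, Car9 and Pfkfb4 for VIL, and Gpi1, Pgk1, Pgam1, Epas1, Car9 and Ankrd37 for COL_cWRNE.

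With the replicate block, 17 members were called with 5-FU in Matrigel, 20 in collagen and 5 for the medium comparison. Paired in this way, Hk2 (Matrigel), Slc16a3 (collagen) and Slc2a1 (medium) lost their call, Aldoa gained one with 5-FU in both matrices, Epas1 and Vegfa gained one for the medium, and no other call of these 3 comparisons changed. Elsewhere the numbers did not pair the samples by that rule, and the block gave 3, 25, 23, 1, 25 and 24 calls for the difference between matrices, the matrix without and with 5-FU, VIL against COL_cWRNE, and VIL and COL_cWRNE against MG_Control. Library totals moved the share of higher calls among all genes to 45.2% in place of 73% for the medium comparison. Depth limited Slc2a3 and, in MG_Control, Ldhb.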
